A study of Oryzias melastigma with 6 samples.

Results

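The ovary of the marine medaka (Oryzias melastigma, a small saltwater fish) was compared with brain and liver of the same sex by their microRNAs (miRNAs). All libraries came from breeding, sexually mature fish, and each was made from pooled tissue. The female libraries were used for the comparison: ovary, female brain and female liver, 3 of the 6 libraries of the series. Testis, male brain and male liver were used only to set the female values beside. No treatment, strain or age is named in the labels, and the number of fish in a pool is not given in the sources used here. With 1 library per group there are no replicates. Differences between libraries therefore could not be set against a spread between fish or preparations. The intervals of ratios and percentages cover counting error only. Values were compared per miRNA family arm, meaning the summed level of all listed sequences of a family from the same arm of its hairpin, and per exact sequence. Of 136 family arms in the series, 133 were listed in at least 1 female library, and of 1132 exact miRNA sequences, 1049 were. An arm or sequence was called ovary-high when it lay above both female somatic libraries and ovary-low when it lay below both.

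miRNAs are short RNAs cut from hairpin precursors, and each arm of a hairpin (5p or 3p) can be loaded into an Argonaute protein. The bases 2 to 8 from the 5′ end, the seed, pair with sites in mRNAs, whose translation or stability then falls. In the fish ovary, growing oocytes are wrapped in follicle cells and in a theca of connective tissue with vessels, so a whole ovary mixes germ cells with several somatic cell types. Brain is known for neuronal miRNAs such as miR-9 and miR-124, liver for miR-122, and vertebrate gonads for miR-202.

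The values are RPM, reads scaled to 1 common library size, and the library totals implied by them were 18.9 to 22.9 M reads (M, mega) in the female libraries. Sequences of 20 to 23 nt were listed down to a minimum of 10.004 RPM in ovary (229 reads), 8.03 in female brain (182 reads) and 6.03 in female liver (114 reads), and an unlisted sequence was taken as under that minimum, not as absent. In 1 case this reading is in doubt. A miR-29-3p sequence of 23 nt, described with its arm, has no value for female brain here but stood at 5976 RPM in male brain. This sequence is still counted as under the minimum there in the exact-sequence calls, and the female brain sums lack it. Among named sequences it was the only one unlisted in a brain or liver library and at least 100 times over that library's minimum in the same organ of the other sex. Listed miRNA sequences made up 2.37% of all reads in ovary, 23.3% in female brain and 1.84% in female liver, with Wilson 95% intervals no wider than 23.27% to 23.30% in any of these. Because brain held 9.81 times the miRNA RPM of ovary, each value was also read as a share of the library's summed miRNA RPM. The listing minimum corresponded to a share of 0.0421% in ovary, 0.00345% in female brain and 0.0328% in female liver. The labelled organs carried their usual markers: miR-202-5p was listed in ovary and in neither female somatic library, miR-124-3p in female brain alone at 5781 RPM and miR-122-5p in female liver alone at 1823 RPM.

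The sequences below are the most abundant ovarian form of each of the 11 arms that were ovary-high on both scales, as read from the deposited tables, 5′ to 3′, with the seed in capitals. They are shown because the rest of the account turns on them, and because no reference miRNA sequence of this species was used.
miR-202-5p: tTCCTATGcatatacttctttga
miR-202-3p: aAAGAGGCataaggcatggga
miR-143-3p: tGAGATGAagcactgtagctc
miR-145-5p: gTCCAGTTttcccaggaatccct
miR-146-5p: tGAGAACTgaattccatagatgg
miR-223-3p: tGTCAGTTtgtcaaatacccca
miR-23-3p: aTCACATTgccagggatttcca
miR-25-3p: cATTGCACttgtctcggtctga
miR-196-5p: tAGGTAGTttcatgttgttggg
miR-214-3p: aCAGCAGGcacagacaggcag
miR-214-5p: gCCTATCTacacttgctgtgc

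On deposited RPM, 12 of 133 arms were ovary-high (9.02%) and 18 were ovary-low (13.5%). On shares, 31 were ovary-high (23.3%) and 10 were ovary-low (7.52%). On both scales together, 11 arms were ovary-high and 10 were ovary-low. No arm was high on one scale and low on the other, which could not occur here. Going from RPM to shares multiplies each library by 1 factor, which raises ovary against brain and lowers it against liver. On RPM 42 further arms lay between the somatic libraries, 40 of them under brain and over liver. The last 61 could not be placed, 57 of them because they were listed in female brain alone. Ovary listed 68 arms, of which 63 were also listed in female brain, 50 in female liver and 5 in neither. The 11 arms ovary-high on both scales made up 21.98% of ovarian miRNA reads, 0.378% of those of female brain and 1.28% of those of female liver. That this sum is highest in ovary follows from the call. Over arms listed in both libraries, the median ratio of ovary to female brain was -2.21 on the log2 scale of RPM and 1.08 of shares (63 arms), and that of ovary to female liver was 0.98 and 0.61 (50 arms).

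**Figure D1:**
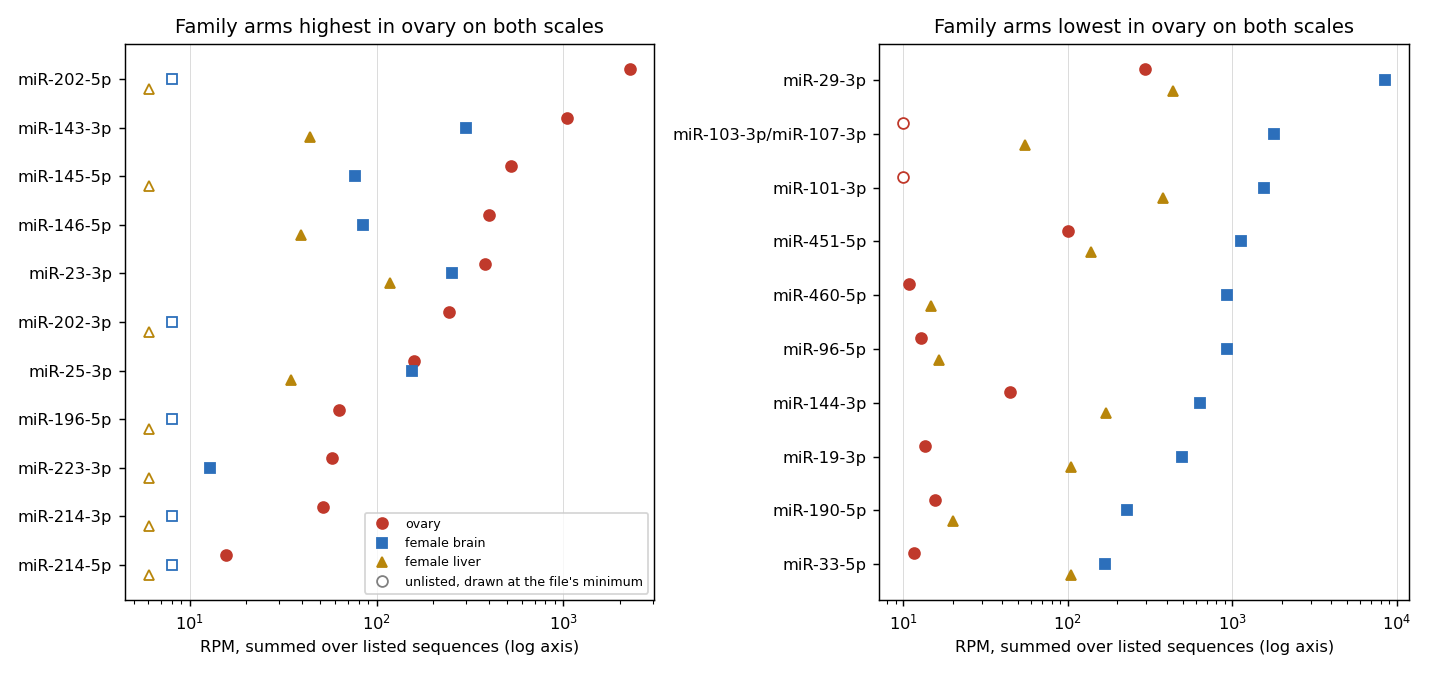
RPM (log axis) of the 11 family arms that were highest in ovary on both scales (left) and of the 10 that were lowest (right), with ovary as circles, female brain as squares and female liver as triangles. Open symbols are unlisted values drawn at the file's minimum. In the left panel miR-25-3p has ovary and brain almost on top of each other at 158 and 155 RPM, and in the right panel brain is the highest library for each arm.

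The arms of miR-202, a miRNA found mainly in gonads of vertebrates and needed for normal egg production in medaka (Oryzias latipes), led the ovary-high group. miR-202-5p stood at 2280.0 RPM in ovary, 9.60% of its miRNA reads, and was unlisted in female brain and liver. Set against the listing minima, its most abundant sequence was at least 97.0-fold higher in ovary than in female brain and at least 129-fold higher than in female liver. Its partner miR-202-3p stood at 245 RPM in ovary and was likewise unlisted in both somatic libraries. Of its ovarian reads 88.7% began 2 bases before, and 11.3% at, the start taken as usual from other vertebrates, so the shown seed is that of the earlier start. In a bulk library, fewer cells of a type and less of a miRNA per cell cannot be told apart, here and for each arm that follows. The 5′ end of miR-202-5p varied: 82.3% of its ovarian reads began at the usual base, 13.5% began 1 base earlier and 4.17% 1 base later. The earlier start moves the seed by 1 base, as in tTTCCTATgcatatacttcttt, which was listed at 261 RPM in ovary.

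miR-143-3p and miR-145-5p, neighbours in 1 cluster of vertebrate genomes and known for their high level in smooth muscle and other mesenchymal cells, were the next. miR-143-3p stood at 1044 RPM in ovary, 300.4 in female brain and 44.1 in female liver. Ovary was 3.48 times brain (exact conditional binomial 95% interval 3.38 to 3.57) and 23.7 times liver (22.1 to 25.4). miR-145-5p stood at 524 RPM in ovary and 76.4 in female brain and was unlisted in female liver. Ovary was the highest of the 3 libraries for both arms. On shares the excess over brain was wider, 34.1-fold for miR-143-3p and 67.3-fold for miR-145-5p.

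The 2 ovary-high arms of the leukocyte list were miR-146-5p, an inflammation-induced miRNA in mammals, and miR-223-3p, a miRNA of neutrophils and other myeloid cells. miR-146-5p stood at 399 RPM in ovary, 84.1 in female brain and 39.3 in female liver, 4.75 times brain (4.52 to 4.99) and 10.2 times liver (9.43 to 10.97). miR-223-3p stood at 57.9 RPM in ovary and 12.8 in female brain and was unlisted in female liver. Another member, miR-142-3p, known from all blood cell lineages, was ovary-high on shares alone, at 0.258% of ovarian reads against 0.0558% in brain and 0.0668% in liver. The other listed members, miR-142-5p and miR-150-5p, were listed in female brain alone, and miR-155-5p was unlisted in the 3 libraries.

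Of the other ovary-high arms, miR-23-3p had the highest level, with 379 RPM in ovary, 252 in female brain and 118 in female liver. Ovary was 1.504 times brain (1.45 to 1.56) and 3.21 times liver (3.06 to 3.36). miR-25-3p stood at 158 RPM in ovary, 155 in female brain and 34.7 in female liver. Its ratio to brain was 1.02 with an interval of 0.976 to 1.07, so on RPM ovary and brain could not be told apart for this arm beyond counting error, and it was the only one of the 12 ovary-high arms with such an interval. On shares it was 10.03-fold over brain. miR-196-5p, which lies within Hox gene clusters, stood at 62.5 RPM in ovary and was unlisted in both somatic libraries. miR-214-3p and miR-214-5p, from a hairpin known in mesenchyme, stood at 51.6 and 15.7 RPM in ovary and were unlisted in both. With a level close to the minimum, miR-214-5p was at least 1.95-fold higher in ovary than in female brain and at least 2.60-fold higher than in female liver. Its shown form began 1 base after the start taken as usual from other vertebrates. The other arm called ovary-high on RPM, miR-199-3p, differed little between the libraries, with 226 RPM in ovary, 176 in female brain and 189 in female liver, and its share lay between those of the somatic libraries.

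A further 20 arms lay between the somatic libraries on RPM, below brain and above liver, and were ovary-high on shares. They made up 55.3% of ovarian miRNA reads, 27.5% of those of female brain and 18.1% of those of female liver, an order that the call on shares fixes. let-7-5p, a regulator of developmental timing and the most abundant arm of ovary, stood at 6870.3 RPM in ovary, 37499.8 in female brain and 1856 in female liver. As shares these were 28.9%, 16.1% and 10.1%, so that ovary was 1.80 times brain on shares and 0.183 times on RPM. Among its forms, tGAGGTAGtagtttgtatagtt held 21.9% of the let-7-5p reads of ovary, 6.76% of those of female brain and 17.1% of those of female liver.

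miR-21-5p, widely expressed and raised in wound repair and fibrosis, held 8.01% of ovarian miRNA reads, 2.53% of those of female brain and 2.63% of those of female liver. miR-15-5p and miR-16-5p restrain cell division in mammals. They held 4.08% and 3.01% in ovary, 1.79% and 1.84% in female brain, and 2.07% and 1.14% in female liver. Their most abundant ovarian forms share a seed. The miR-15-5p sum also holds forms with G in place of A at base 8, and so another seed. The most abundant of these in ovary made up 20.5% of the arm there, 5.24% in female brain and 8.53% in female liver. The fish arm miR-457-5p has the seed of the 2 top forms and was also ovary-high on shares, with values near the ovarian minimum. miR-216-5p, best known from pancreas, held 4.74% in ovary, 3.73% in female brain and 0.287% in female liver. miR-1-3p, a miRNA of striated muscle, held 0.424% in ovary and 0.137% in female brain and was unlisted in female liver. For miR-1-3p and miR-206-3p, which share a seed and a muscle origin, ovary was thus above both on shares, while miR-133-3p and miR-499-5p, the other muscle arms, were unlisted in ovary.

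**Figure D2:**
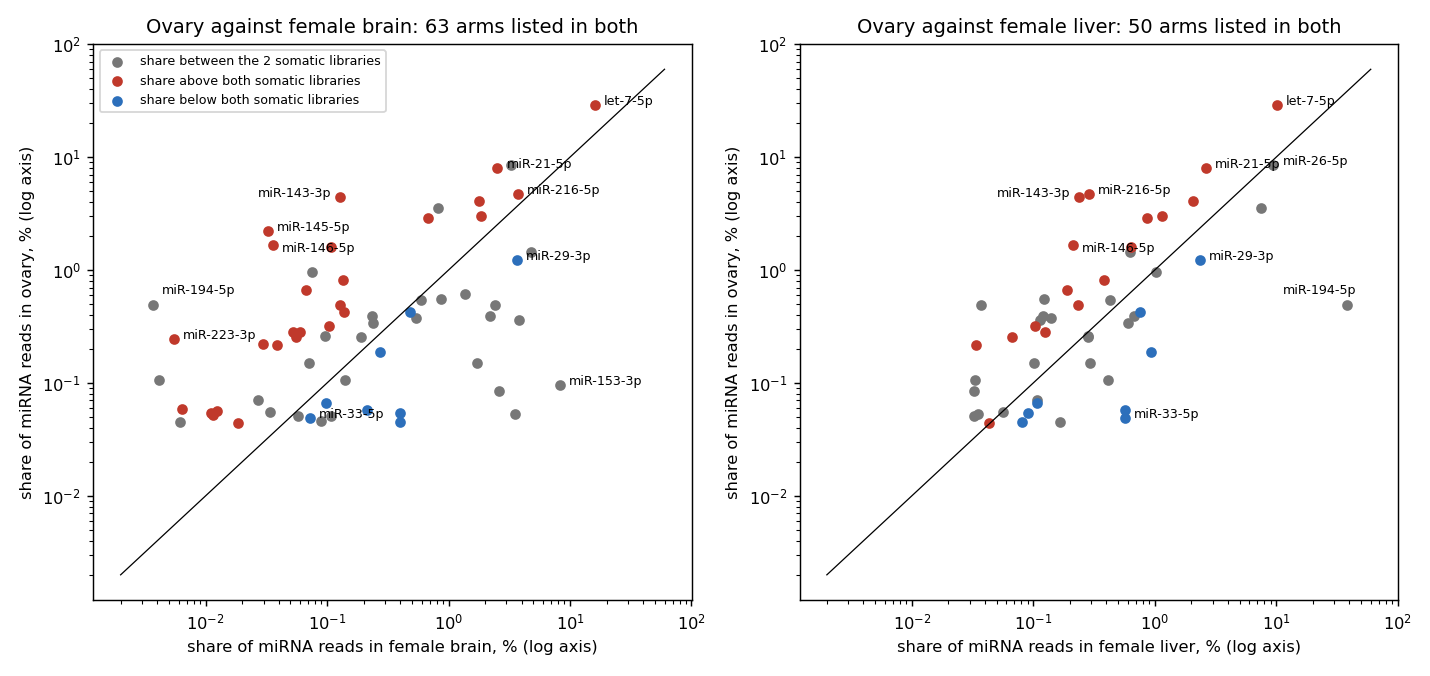
Share of miRNA reads in ovary (vertical, %, log axis) against that in female brain (left, 63 arms) and in female liver (right, 50 arms); each point is 1 family arm listed in both, and the line marks equal shares. Arms above both somatic libraries are red, arms below both blue and the rest grey. miR-143-3p lies far above the line in both panels, while miR-194-5p lies above it against brain and far below it against liver, where it holds 38.4% of miRNA reads.

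Of the 10 most abundant arms of ovary, 2 did not rank above both somatic libraries on either scale. miR-26-5p, behind let-7-5p and miR-202-5p in ovary, stood at 2032 RPM there, 7605 in female brain and 1744 in female liver, and its share of 8.56% lay between 3.27% and 9.49%. The summed arm of miR-17-5p, miR-20-5p and miR-106-5p, which share a seed and are known from dividing cells, stood at 842 RPM in ovary, 1924 in female brain and 1369 in female liver and was ovary-low on RPM. Its share of 3.55% in ovary lay over 0.826% in brain and under 7.45% in liver.

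The 10 arms ovary-low on both scales held 2.12% of miRNA reads in ovary, 7.01% in female brain and 7.83% in female liver. By the call, their sum had to be lowest in ovary. The listing minimum is a larger share in ovary than in brain or liver. Somatic sums can therefore hold forms of a share too low to be listed in ovary. The most abundant ovarian or, where ovary listed none, brain sequences of those with a level of at least 50 RPM in both somatic libraries show which miRNAs these are.
miR-29-3p: tAGCACCAtttgaaatcggtgtt
miR-451-5p: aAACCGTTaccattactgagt
miR-144-3p: cTACAGTAtagatgatgtact
miR-19-3p: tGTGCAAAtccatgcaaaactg
miR-33-5p: gTGCATTGtagttgcattgca
miR-101-3p: tACAGTACtgtgataactgaag
miR-103-3p/miR-107-3p: aGCAGCATtgtacagggctatg

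miR-101-3p, which targets the histone methyltransferase EZH2 in mammals, was unlisted in ovary and stood at 1561 RPM in female brain and 378 in female liver. Its most abundant sequence was at least 56.7-fold higher in female brain and at least 7.99-fold higher in female liver than the ovarian minimum. The arm of miR-103-3p and miR-107-3p, which lie within pantothenate kinase genes, was also unlisted in ovary, at 1794 RPM in female brain and 54.8 in female liver. miR-33-5p, which lies within an SREBP gene and acts on cholesterol export in mammals, stood at 11.6 RPM in ovary, 168 in female brain and 104 in female liver. The ovarian share of miR-33-5p was 0.0488%, against 0.0721% in brain and 0.568% in liver. Its only listed ovarian form, compared by itself, lay above brain and below liver on shares.

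miR-19-3p stood at 13.6 RPM in ovary, 496 in female brain and 105.1 in female liver. Brain was 36.4 times ovary (32.5 to 40.8) and liver 7.71 times (6.84 to 8.72). miR-29-3p, which lowers collagen mRNAs in mammals, stood at 294 RPM in ovary and 436 in female liver, which was 1.48 times ovary (1.44 to 1.53). Its sum of 8455 RPM in female brain lacks 1 form, tAGCACCAtttgaaatcagtgtt, which stood at 75.2 RPM in ovary, 93.8 in female liver and 5976 in male brain. The 3 shorter forms of the same sequence summed to 525 RPM in female brain and 352 in male brain. The female brain value of the form is therefore not interpreted as under the minimum, although the exact-sequence calls count it so. Without that form in any library, miR-29-3p was 38.7 times higher in female brain and 28.6 times higher in male brain than in ovary, and 1.56 times higher in female liver. With all listed forms, male brain was 41.6 times ovary. Ovary had the lower value in each of these ratios, and the female brain share of miR-29-3p is short of that form wherever it is summed. The remaining 3 ovary-low arms, miR-96-5p, miR-190-5p and miR-460-5p, stood at 10.8 to 15.6 RPM in ovary and 14.7 to 19.9 in female liver, close to the listing minima. In female brain they stood at 230.4 to 931 RPM. The only listed ovarian form of miR-190-5p, compared by itself, was ovary-high on shares.

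miR-144-3p and miR-451-5p, made from 1 precursor transcript in red cells, were both ovary-low. miR-451-5p stood at 100.1 RPM in ovary, 1131 in female brain and 139 in female liver. miR-144-3p stood at 44.6 RPM in ovary, 635 in female brain and 169.7 in female liver. Its listed ovarian forms, the shown one included, began 1 base before the start taken as usual. On shares the deficit of the summed arms against brain was small, 1.15-fold for miR-451-5p and 1.45-fold for miR-144-3p. Single forms did not all show it. Both listed ovarian forms of miR-144-3p lay above brain and below liver on shares, and the 21 nt form of miR-451-5p lay above both. The arm deficits against brain thus depend on forms summed in brain but unlisted or lower in ovary. The top form of miR-451-5p differed as well. In ovary it was 21 nt long, at 44.6 RPM, against 35.3 RPM for aAACCGTTaccattactgagttt of 23 nt. That 23 nt form was the top form of both somatic libraries. It stood at 80.0 RPM against 27.9 for the 21 nt form in female liver, but the 2 forms were nearly level in female brain, at 391 and 378 RPM. These 2 arms mark blood in a tissue sample, and their part in the other differences was not tested.

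**Figure D3:**
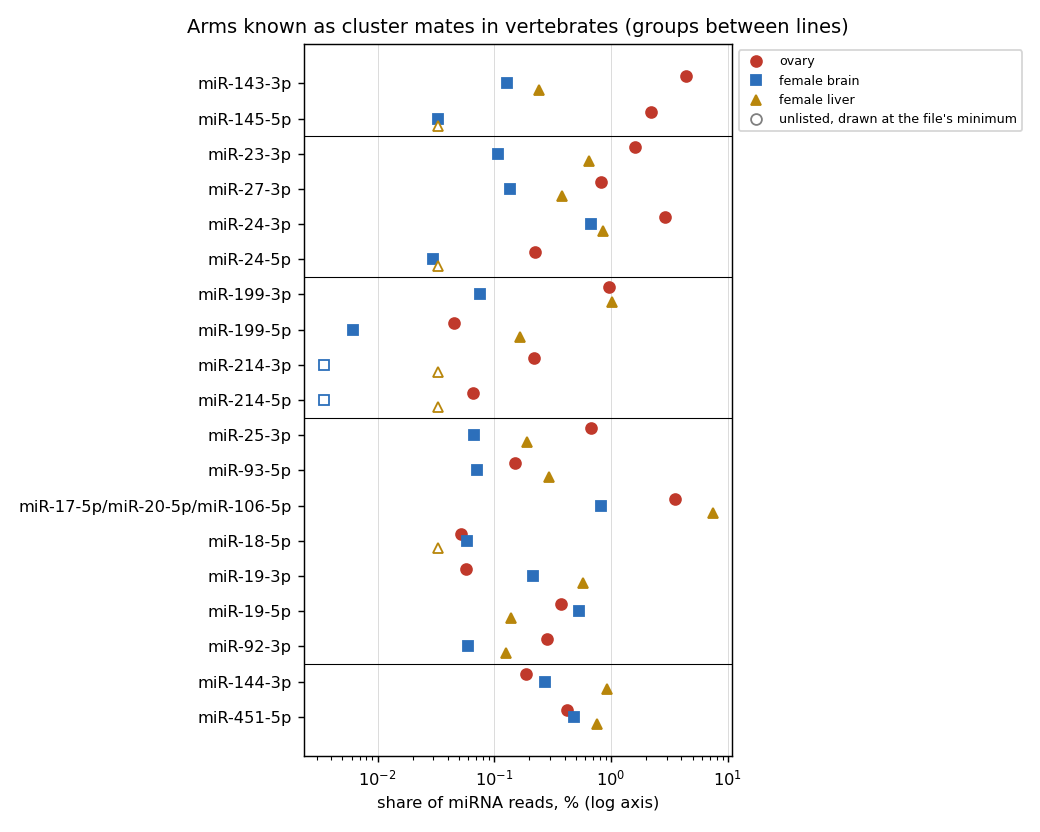
Share of miRNA reads (%, log axis) in ovary (circles), female brain (squares) and female liver (triangles) for arms that lie in 1 cluster or belong to related clusters in other vertebrates, with lines between the groups. Open symbols are unlisted values at the file's minimum. Ovary is the rightmost library for all of miR-143/145 and miR-23/27/24, and for miR-25-3p and miR-92-3p but not for the others of their group.

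Arms of 1 vertebrate cluster were not always placed alike. In the miR-23, miR-27 and miR-24 cluster all 4 listed arms were ovary-high on shares. They were miR-23-3p at 1.60%, miR-27-3p at 0.813%, miR-24-3p at 2.90% and miR-24-5p at 0.222% of ovarian reads. On that scale 23.3% of all 133 arms were ovary-high. An arm unlisted in ovary could not be ovary-high, and of the 68 arms listed there 31 were. Of the 4 cluster arms, miR-23-3p was ovary-high on RPM as well. Among the clusters of miR-17 to miR-92 and of miR-25 and miR-93, all 7 arms listed in a female library were listed in ovary. miR-25-3p and miR-92-3p, which share a seed, were ovary-high on shares, at 0.668% and 0.284%. miR-93-5p and the miR-17 arm, which share another seed, were ovary-low on RPM and between the somatic libraries on shares. miR-19-3p was ovary-low on both scales, while miR-18-5p and miR-19-5p lay between on both. The 7 arms together held 5.13% of ovarian reads, 1.83% in female brain and 8.77% in female liver. Of the miR-199 and miR-214 pair, both arms of miR-214 were ovary-high, miR-199-3p was ovary-high on RPM alone, and miR-199-5p was ovary-low on RPM at 10.7 RPM against 14.3 in brain and 30.4 in liver. Whether these arms lie together in the marine medaka genome was not examined here.

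Lists of arms known from particular cell types were read by how many members were placed, beside 9.02% ovary-high and 13.5% ovary-low arms overall on RPM, and 23.3% and 7.52% on shares. Both arms of the gonad list, miR-202, were ovary-high. Of the neuron list, 10 of 13 arms were unlisted in ovary; the 3 listed were miR-153-3p at 22.9 RPM, miR-7-5p at 20.2 and miR-128-3p at 12.5, against 19332, 6096 and 8238 in female brain. The list summed to 0.235% of miRNA reads in ovary, 38.6% in female brain and 0.0680% in female liver. Of the hepatocyte and gut list, 1 of 4 arms was listed in ovary, and the list summed to 0.494% there and 49.0% in female liver. That arm, miR-194-5p, known from liver and intestine, stood at 117 RPM in ovary, 8.61 in female brain and 7061 in female liver, and miR-122-5p was unlisted in ovary.

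The smooth muscle and endothelium list, 6 arms, held miR-143-3p and miR-145-5p as ovary-high members on both scales and miR-126-3p as an ovary-low one on RPM alone. miR-126-3p, the endothelial marker among them, stood at 93.3 RPM in ovary, 549 in female brain and 123 in female liver, and its ovarian share of 0.393% lay between 0.236% in brain and 0.671% in liver. The list summed to 7.20% of ovarian reads, 2.40% in female brain and 1.07% in female liver. Most of its ovarian sum came from miR-143-3p and miR-145-5p. The mesenchyme list, 4 arms, had 2 ovary-high members on RPM, miR-199-3p and miR-214-3p, and 2 on shares, miR-21-5p and miR-214-3p. It summed to 9.23% in ovary, 2.61% in female brain and 3.82% in female liver. Most of its ovarian sum was miR-21-5p, which is widely expressed.

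The leukocyte list, 6 arms, had 2 ovary-high members on RPM and 3 on shares and summed to 2.18% in ovary, 0.109% in female brain and 0.280% in female liver. The red cell list, 3 arms, had 2 ovary-low members on each scale and summed to 0.610%, 0.775% and 1.72%. The leukocyte sum was therefore highest in ovary and the red cell sum lowest there. Of the leukocyte sum in ovary, 518 RPM, miR-146-5p alone made up 399 RPM. The 4 arms of the epithelium list, of which miR-141-3p and miR-205-5p were listed in ovary, summed to 0.311% in ovary, 0.254% in female brain and 0.314% in female liver. The 5 arms of the sensory list summed to 0.0539%, 0.728% and 0.0901%, with miR-96-5p alone listed in ovary. The striated muscle list, 4 arms, summed to 0.476% in ovary and 0.165% in female brain and was unlisted in female liver.

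Of the Hox cluster list, 2 arms, miR-196-5p was ovary-high and miR-10-5p lay between, at 25.2 RPM in ovary, 325 in female brain and 6.08 in female liver. Of the pancreas list, 3 arms, miR-216-5p and miR-217-5p were listed in ovary, and the list summed to 5.35% in ovary, 5.13% in female brain and 0.287% in female liver. The let-7, miR-99/100 and miR-125 list, 6 arms, summed to 30.3%, 19.6% and 10.5%, with let-7-5p its ovary-high member on shares. Of 12 arms that earlier work on these data had grouped as germline and gonadal, 10 were listed in a female library. Of these, 3 were ovary-high and 3 ovary-low on RPM, and 5 and 1 on shares. The list comes from these same data and holds both miR-202 arms of the gonad list, so its counts are not independent support. miR-430-3p, known from oocytes and early embryos of zebrafish, was unlisted in all 3 libraries.

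Over members listed in both libraries, the median log2 ratio of shares to female brain and liver was set beside 1.08 and 0.61 over all arms. It was 5.47 to brain (3 arms) and 2.46 to liver (2 arms) for the leukocyte list, 2.89 and -0.11 (3 arms each) for the mesenchyme list, and 0.74 (5 arms) and 0.26 (4 arms) for smooth muscle and endothelium. For the red cell list it was -0.37 and -1.57 (2 arms each), for the let-7, miR-99/100 and miR-125 list -0.10 and 1.86 (4 arms each), and for the neuron list -6.07 (3 arms) and 0.98 (2 arms). The leukocyte median thus lay above that of all arms in both comparisons and the red cell median below it, on very few members. Neither place was particular to its list. The germline and gonadal list also lay above in both, at 1.66 and 1.18 (7 arms each). Smooth muscle and endothelium lay below in both. So did the epithelium list, at 0.18 and 0.26 (2 arms each), and the sensory list, at -2.88 and -0.74 (1 arm each). Members unlisted in ovary do not enter these medians. That leaves out miR-142-5p and miR-150-5p from the leukocyte list and 10 of the 13 neuron arms. Over all arms, the 95% interval of the median was -0.14 to 1.66 against brain and -0.14 to 1.37 against liver. That interval was taken over arms of the same libraries, which are not replicates. It describes the spread between arms and covers no spread between fish or preparations.

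**Figure D4:**
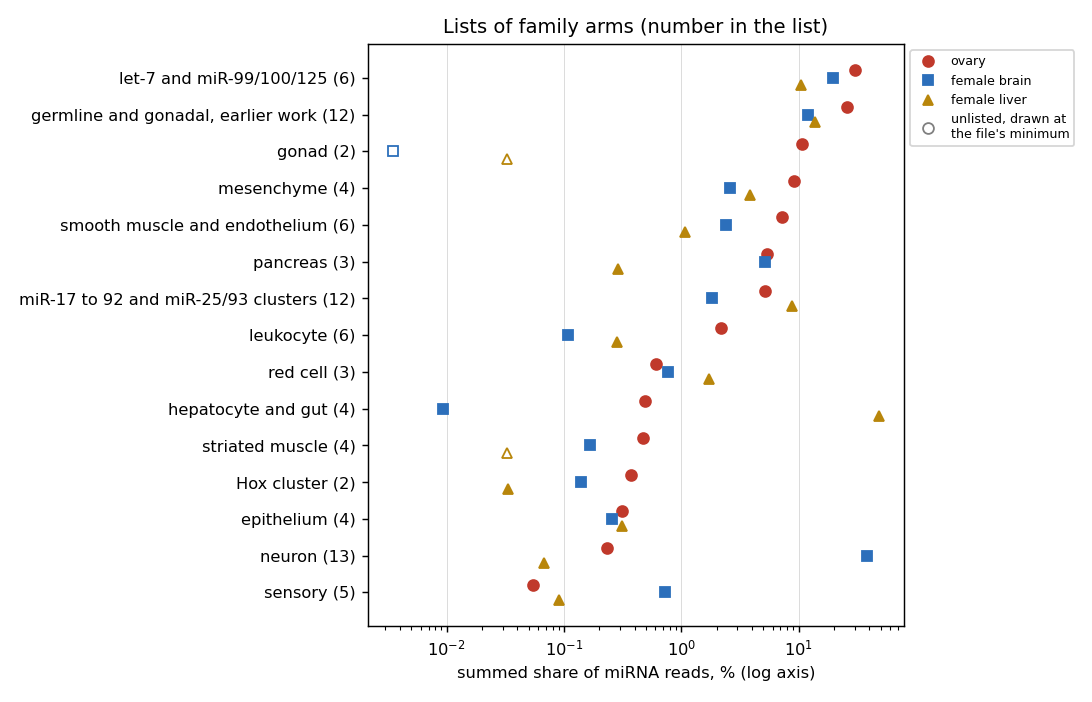
Summed share of miRNA reads (%, log axis) of each list of family arms in ovary (circles), female brain (squares) and female liver (triangles), with the number of arms in the list in brackets and open symbols for lists with no listed arm. The neuron list is at 38.6% in brain and the hepatocyte and gut list at 49.0% in liver, both under 0.5% in ovary.

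Among exact sequences, 56 of 1049 were ovary-high on RPM (5.34%) and 57 ovary-low (5.43%). On shares 134 were ovary-high (12.8%) and 27 ovary-low (2.57%). Most could not be placed, 798 on RPM and 811 on shares, and 138 and 77 lay between the somatic libraries. The miR-29-3p form with no value for female brain is among those between on both scales. Leaving it out gave 135 ovary-high and 26 ovary-low sequences on shares, with the RPM counts unchanged. Ovary listed 224 of the 1049 sequences. The 10 highest ovary-high sequences stood at 259.9 to 779 RPM in ovary: 3 forms of miR-202-5p, 2 of miR-21-5p and 1 each of miR-143-3p, miR-24-3p, miR-145-5p, miR-146-5p and miR-23-3p. Of the 56, 26 were unlisted in both somatic libraries, 40 belonged to arms that were ovary-high on RPM, and 16 belonged to 8 other arms. The highest of these 16 were forms of miR-21-5p and miR-24-3p. The miR-21-5p sequence tAGCTTATcagactggtgttggc, of 23 nt, stood at 438 RPM in ovary, 373 in female brain and 92.5 in female liver, although the summed arm was 3.10 times higher in brain than in ovary. Within an arm, then, single forms were ranked otherwise than their sum.

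Such differences were followed in pairs of sequences of equal length and 5′ end that differ by 1 base, counted from 1 at the 5′ end. The 4 pairs shown were chosen after their values had been seen, and all lie in arms already named above. In each, the first sequence is the form with more reads in ovary.
miR-24-3p, first: tGGCTCAGttcagcaggaaccg
miR-24-3p, second: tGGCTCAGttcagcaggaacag
miR-23-3p, first: aTCACATTgccagggatttcca
miR-23-3p, second: aTCACATTgccagggattacca
miR-26-5p, first: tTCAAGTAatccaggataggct
miR-26-5p, second: tTCAAGTAatccaggataggtt
miR-16-5p, first: tAGCAGCAcgtaaatattggc
miR-16-5p, second: tAGCAGCAcgtaaatattgga

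For miR-24-3p (C21A) the first form stood at 430.2 RPM in ovary, 79.9 in female brain and 20.3 in female liver, and the second at 171, 977 and 101. The first form thus made up 71.5% of the pair in ovary (Wilson 95% interval 70.8% to 72.3%), 7.56% in female brain (7.23% to 7.90%) and 16.7% in female liver (15.3% to 18.3%). Male brain gave 6.24% and male liver 15.9%, so the sexes were close in each somatic organ beside the distance to ovary, and testis gave 51.6%. The ovary was the highest of the 6 libraries for this form, while the summed arm was below brain on RPM.

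For miR-23-3p (T19A) the second form was unlisted in ovary and female liver, so that the first made up at least 96.8% of the pair in ovary and at least 92.7% in female liver, against 44.9% in female brain (42.8% to 47.0%). In human, the same base tells miR-23a and miR-23b apart. For miR-16-5p (C21A) the first form made up 55.6% in ovary (54.2% to 57.0%), 11.8% in female brain (11.4% to 12.2%) and 23.4% in female liver (21.1% to 25.8%). This holds for the 21 nt pair. At 22 nt, tAGCAGCAcgtaaatattggag, with A at base 21, stood at 306 RPM in ovary. The 22 nt forms with C, tAGCAGCAcgtaaatattggcg and tAGCAGCAcgtaaatattggca, stood at 24.5 and 12.9 RPM there. For miR-26-5p (C21T) it made up 53.0% in ovary (52.5% to 53.5%), close to 49.2% in female liver (48.6% to 49.8%), and 85.9% in female brain (85.7% to 86.1%). Whether the forms come from different genes or from changes at the RNA's end was not tested, since no genome was used.

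**Figure D5:**
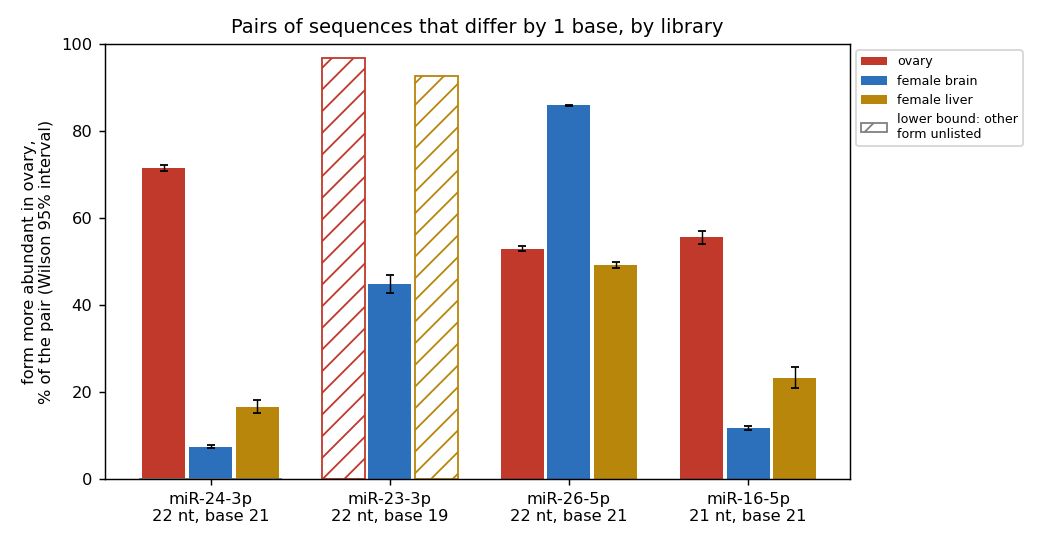
Share of the form more abundant in ovary within each pair of sequences that differ by 1 base (%, from 0), in ovary, female brain and female liver, with Wilson 95% intervals that cover counting error only. Hatched bars are lower bounds where the other form was unlisted. For miR-24-3p ovary is at 71.5% and the somatic libraries at 7.56% and 16.7%.

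Among 43 arms of at least 50 RPM in ovary, the most abundant sequence differed from that of female brain or female liver in 11. In 7 of the 39 arms listed in female brain it differed from brain, and in 6 of the 33 listed in female liver it differed from liver. Some of these differences were of length only: for the miR-17 arm the top form was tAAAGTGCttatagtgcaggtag in ovary and liver, and a form 1 base shorter in brain. For miR-27-3p the top form was tTCACAGTggctaagttcagt in ovary and brain and tTCACAGTggttaagttctgc in liver, and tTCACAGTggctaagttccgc was listed in ovary alone, at 21.7 RPM. By length, 56.3% of ovarian miRNA reads were of 22 nt, 53.2% in female brain and 33.6% in female liver, where 47.1% were of 21 nt. Without the top arm of each library, let-7-5p in ovary and brain and miR-194-5p in liver, 22 nt made up 45.0%, 50.2% and 53.1%.

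The male libraries gave a separate view of the same arms. With male brain and male liver in place of the female ones, all 11 arms stayed ovary-high on both scales, and 7 of the 10 ovary-low arms stayed ovary-low on both. Over all arms, 11 were ovary-high and 11 ovary-low on both scales against the male libraries. This check shares the ovary library with the main comparison. In testis against male brain and male liver, 7 of the 11 arms were testis-high on both scales: both arms of miR-202, miR-143-3p, miR-145-5p, miR-196-5p and both arms of miR-214. Over all arms, 9 were testis-high on both scales. miR-202-5p stood at 1256 RPM in testis, miR-143-3p at 1249 and miR-145-5p at 548. miR-146-5p, miR-23-3p and miR-25-3p were below both male somatic libraries on RPM in testis, and miR-223-3p was unlisted there. Over all arms, those testis-low on RPM were 15 also low on shares, 17 between, 2 high and 7 not placed on shares. Of the 31 arms ovary-high on shares, 19 were testis-high on shares, 8 lay between the male somatic libraries, 4 could not be placed and none was testis-low. Over all arms, those testis-high on shares were 9 also high on RPM, 12 between on RPM and 2 low on RPM. In that comparison 61 arms could not be placed on either scale.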

How the data were processed

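Small RNA from 6 pooled tissue samples, purified on a gel, was sequenced after PCR, per the labels. The submitters' processing notes name CASAVA 1.7.0, and an aligner or a trimming step is not given in the sources used here. The deposited values were taken as RPM, made by the authors: each value under 200 RPM lay within 0.0014 reads of a whole number of reads in a fixed total, and those implied totals (18.7 to 25.5 M reads, M for mega) served depth and intervals alone. PCR reads without molecular identifiers are not independent molecules, so intervals of ratios and percentages cover counting error only.

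Sequences were named by similarity to 215 hand-written keys of 174 conserved arms (bases 2 to 8 and 11 to 18), with at most 1 mismatch in the seed, 2 in all (2 with a 5′ shift of at most 1 nt) and a shift of at most 3 nt; ties stayed unnamed. The key for miR-19-5p, merged keys for near-identical families and the limit on shifts were set after unnamed or tied sequences, or random sequences, had been looked at. Near-identical paralogues were not told apart. Of 1571 sequences, 1132 were named to 136 arms; unnamed sequences held 2.38% to 26.9% of listed RPM per library and were not analysed here.

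RPM were summed per arm. An unlisted value counted as lower only where the other value reached that file's minimum; for an unlisted arm, bounds divide the top sequence by that minimum. Ratios carry exact conditional binomial intervals at 95%. No test across samples was possible with 1 library per group, and none of the calls has a p-value. Named were the 10 arms highest in ovary, up to 12 ovary-high and up to 12 ovary-low arms on both scales with at least 50 RPM in ovary or in the lower somatic library, members of the lists, and the 10 highest ovary-high sequences; others were named after their values were seen. Members and lists were chosen with earlier results of these data known. The intervals, and the calls with a 2-fold margin, were tested on simulated data of listed sequences. The main calls, which have no margin and include unlisted values, were not tested in this way. Alternatives were unlisted values at 0, common minima, a 2-fold margin, a 50 RPM filter, stricter naming, top sequences, other denominators, the male somatic libraries and leaving out the miR-29-3p form with no value for female brain. Tools were Python 3.11.15, numpy 2.4.6, pandas 2.3.3, scipy 1.17.1 and matplotlib 3.10.9.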

Additional observations from a re-analysis of the deposited data

Results flagged for a closer look

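3 arms stood opposite in the gonads when each was set against brain and liver of its own sex. On RPM, ovary lay above both and testis below both. With 1 library per group the difference was not tested. Lying below both on RPM was common in testis. Over all arms it held for 15 that were testis-low on shares as well, 17 between, 2 testis-high and 7 not placed on shares. The 3 arms are thus not set apart by their testis call. miR-146-5p stood at 399 RPM in ovary against 84.1 and 39.3 in female brain and liver, and at 69.4 in testis against 118 and 152 in male brain and liver. miR-23-3p stood at 379 RPM in ovary against 252 and 118, and at 68.4 in testis against 170.0 and 176. miR-25-3p stood at 158 RPM in ovary against 155 and 34.7, where the excess over brain was within counting error, and at 28.2 in testis against 131 and 38.2. On shares, testis lay between the male somatic libraries for all 3. Ovary was higher than testis in listed miRNA reads as well, at 2.37% and 1.54% of all reads.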

How the results depend on the processing

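Of 82 recomputed counts and medians, 68 kept their direction and lay within 1.5 times of the reported count, or inside the median's interval. With a margin of 2-fold, ovary-low arms went from 18 to 5 on RPM and from 10 to 3 on shares, ovary-high sequences from 56 to 31 and from 134 to 66, and ovary-low sequences from 57 to 18 and from 27 to 3. With at least 50 RPM in the highest library, ovary-high sequences numbered 26 on RPM and 82 on shares. Median-of-ratios scaling gave 89 ovary-high and 62 ovary-low sequences, unlisted values at 0 gave 68 ovary-low sequences on shares, shares without let-7-5p gave 14, and the top sequence in place of the sum gave 6 ovary-low arms on shares. The cause was not tested, beyond the narrower rule or fewer features that some settings impose. The median log2 ratio to brain was -2.21 on RPM in place of 1.08 on shares, because brain held 9.81 times the miRNA RPM of ovary.

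On shares in place of RPM, the log2 ratio to brain turned positive for let-7-5p (0.85), miR-15-5p (1.19), miR-16-5p (0.71), the miR-17 arm (2.10), miR-21-5p (1.66), miR-216-5p (0.34), miR-24-3p (2.10) and miR-26-5p (1.39), and that of miR-26-5p to liver turned negative (-0.15). After seeing the data, 4 more alternatives were added: the male somatic libraries, a counting interval that excludes 1, a common minimum on the share scale, and leaving out the miR-29-3p form with no value for female brain. The first 3 gave 11, 11 and 35 ovary-high arms against 12 on RPM and 31 on shares, and the last gave 12 and 31. No paired analysis was possible because each group had 1 library, so no library could be left out. The listing minimum of 10.004 RPM limits arms near it in ovary, and it is a larger share of miRNA reads there than the minimum in brain.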
